A study of Zea mays with 18 samples.

Results

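A group of 43 maize genes, of 40690 in the count tables, was lower in iron-deprived shoots than in iron-sufficient ones and was still low 24 hours after iron was given back. Iron is a cofactor of photosystem I, of cytochromes and of many iron-sulphur proteins, and it is needed to make chlorophyll, so most leaf iron is found in chloroplasts. Grasses take iron up from the root medium mainly as a complex with phytosiderophores, chelators that their roots release. Iron is then carried to the shoot, so shoots and roots meet a change of supply in different ways.

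The plants were of the maize inbred line W22, wild type in every group, grown in hydroponic culture for 12 days. Sufficient plants (+Fe) then had iron for 3 days and deficient plants (-Fe) had none, after which both got fresh solution of the same kind. Resupplied plants were deprived for the same 3 days and then given solution with 0.1 mM FeSO4-EDTA. Roots and shoots were collected separately 24 hours after that change of solution. Each of the 6 groups had 3 libraries, which the labels call biological replicates. The labels give no number of plants per library and no tissue within a shoot or root. In such bulk samples, fewer cells of a type and less RNA per cell cannot be told apart.

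The members were chosen by measured levels, in CPM, counts scaled to the size of their library, after TMM scaling of all 18 libraries, a scaling that sets most genes level between libraries. The mean in sufficient shoots, with 0.1 CPM added to every mean, had to be at least 1.5 times that in deficient and in resupplied shoots and to reach 5 CPM. Resupplied and deficient shoots had to lie within 1.5 times of each other. Every sufficient shoot library had to be above every other shoot library, the shoot mean above the root mean, and the root level not more than 1.3 times lower in deficiency. A last exclusion, of abundant shoot genes absent from roots, removed 0 genes. The fall in shoots is therefore the choice itself and is given below as a description, without a test.

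The identifiers could not be turned into genes with known functions. The files do not pair them with names, and 0 of them occur in the table of 49888 B73 genes that was at hand. No role is given for any member, and the labelled organs were not checked against marker genes. CPM is not scaled to gene length, so levels are compared between libraries of a gene and not between genes.

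**Figure D1:**
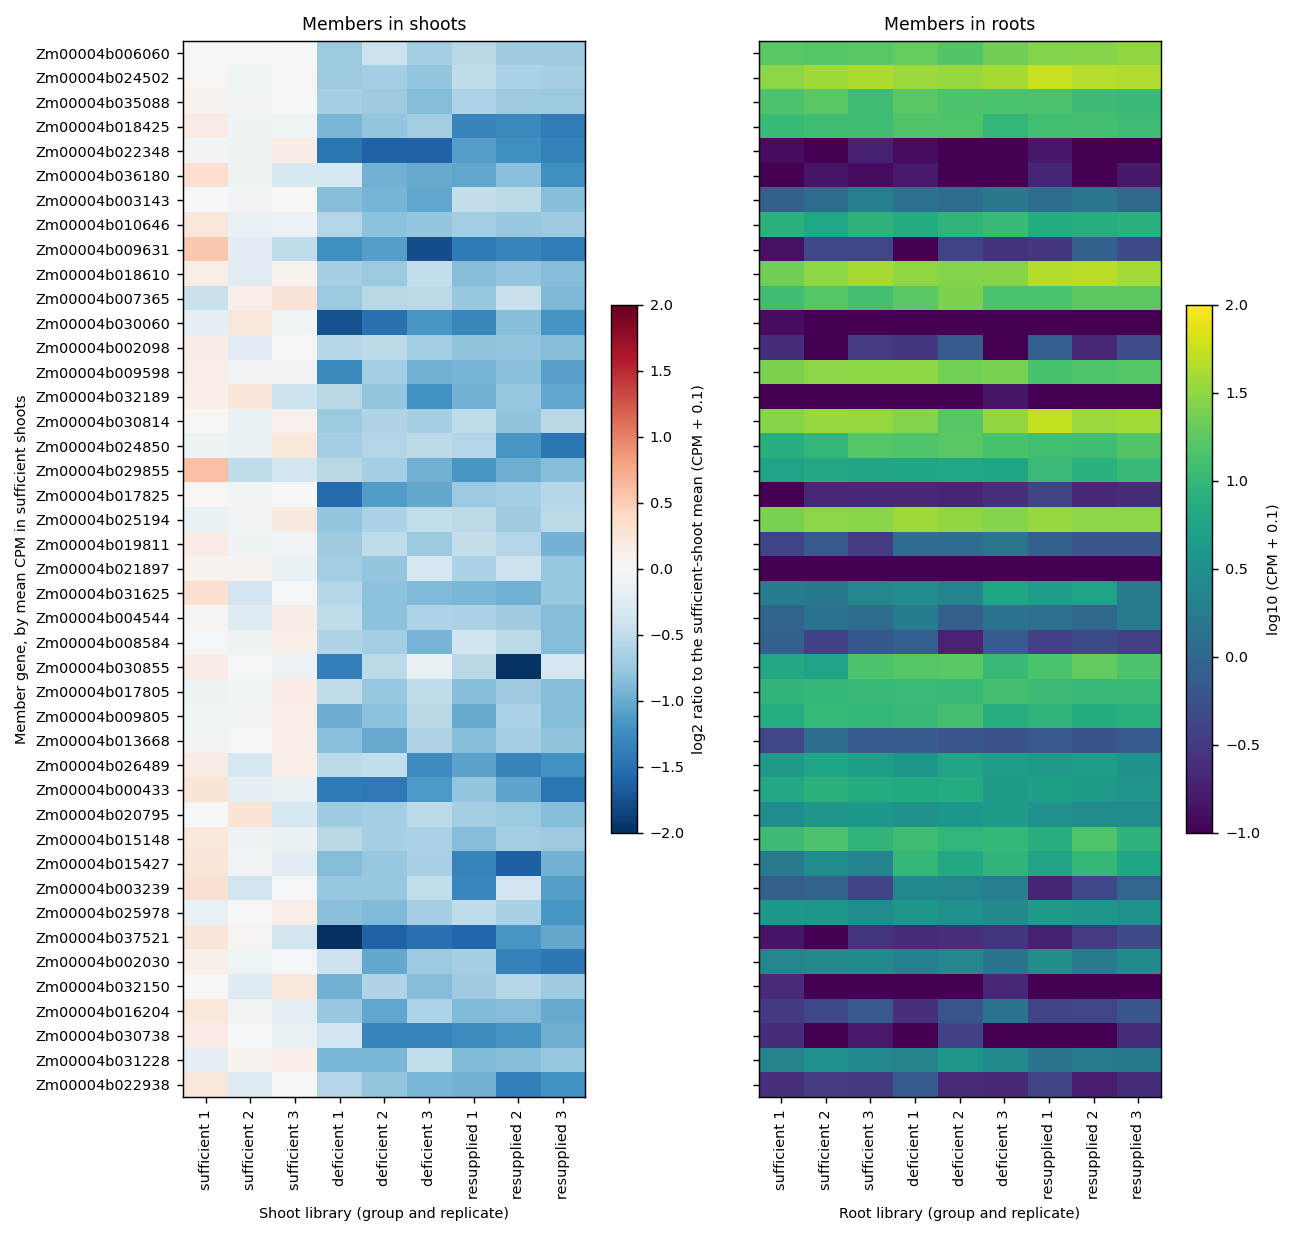
Each row is 1 of the 43 members, ordered by mean CPM in sufficient shoots. Left, each shoot library as the log2 ratio to the gene's mean in sufficient shoots, with colours ending at -2 and 2. Right, each root library as log10 (CPM + 0.1). The deficient and resupplied shoot columns are alike in depth, while the root panel runs from members near 0 to members above 10 CPM.

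The group lies at the edge of a larger set. With the same criteria for level, organ and roots, 211 genes had every sufficient shoot library above every deficient one and a ratio of at least 1.5. Of these, 67, or 31.8%, were more than 1.5 times higher in resupplied than in deficient shoots. The 43 members, or 20.4%, met the rule, and 101 met neither condition. Of the 101, 100 had a ratio of sufficient to resupplied shoots under 1.5. The resupplied shoots of 1, Zm00004b012790, were further below deficient ones than the rule allowed. The median ratio of sufficient to resupplied shoots was 1.77 in the members and 1.00 in the 67. The ratio of sufficient to deficient shoots had medians of 1.67 and 1.83. These values follow from how the sets were cut and were not tested.

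**Figure D2:**
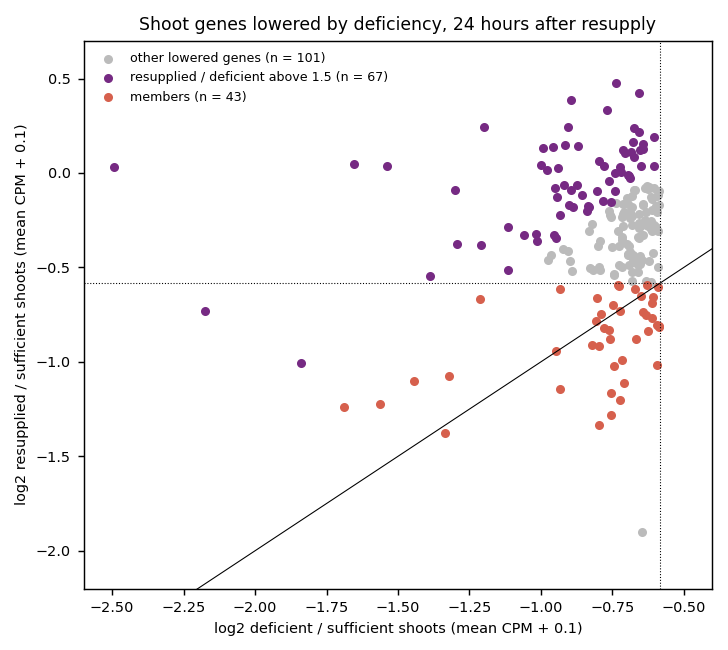
Each point is 1 gene lowered in deficient shoots, with the log2 ratio of deficient to sufficient shoots on the x axis and of resupplied to sufficient shoots on the y axis (mean CPM + 0.1). Dotted lines mark the ratio of 1.5 and the solid line equal values on both axes. The 43 members lie below the horizontal line, with no gap to the 100 grey genes above it, and 1 grey gene lies below the members.

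Many genes missed membership by 1 criterion. A ratio of sufficient to deficient shoots under 1.5 alone kept out 86 genes, and a ratio of sufficient to resupplied shoots under 1.5 kept out 56. The minimum of 5 CPM in sufficient shoots alone kept out 42. Another 17 genes met every other criterion but had a root mean at least 1.3 times lower in deficiency, and 12 had more signal in roots than in shoots. Just inside the first ratio were Zm00004b017805 and Zm00004b002098, at 1.501 and 1.502. Just outside it were Zm00004b016750 and Zm00004b018613, at 1.499 and 1.494. For sufficient against resupplied shoots, Zm00004b008584 and Zm00004b025194 were just inside, both at 1.51. Zm00004b032166 and Zm00004b017340 were just outside, at 1.49 and 1.48. The ratio of resupplied to deficient shoots was highest among members in Zm00004b017825 and Zm00004b037521, at 1.46 and 1.36. Zm00004b017750 was outside it at 1.78, and Zm00004b012790, at 0.419, was below its lower limit of 0.667.

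Summed over all members, the shoot signal was lower in deficiency and had not come back after resupply. The sum was 3797, 3397 and 3534 CPM in the 3 sufficient shoot libraries. It was 2069, 2132 and 2030 CPM in deficient and 2115, 2045 and 1933 CPM in resupplied shoots. The lower groups overlapped each other, and the choice of members kept both below sufficient shoots. The 4 members with the most counts made up 47.8 to 53.1% of this sum in every shoot library. In roots the sum was 310 ± 36.1 CPM in sufficient, 334 ± 13.3 in deficient and 362 ± 17.5 in resupplied plants (SD, n = 3). The lowest resupplied root library, at 344 CPM, was below the highest deficient one, at 349 CPM, and above all 3 sufficient ones, which reached 339 CPM.

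**Figure D3:**
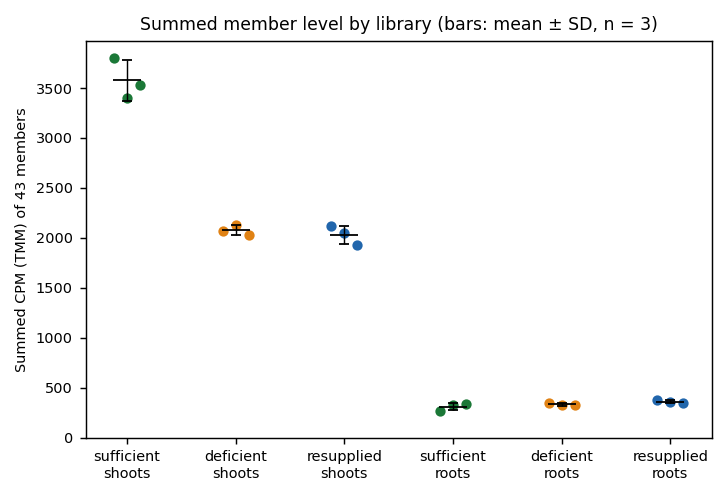
Summed CPM of the 43 members on the y axis in each of the 18 libraries, with mean and SD of 3 libraries as bars. Sufficient shoots sit at 3397 to 3797 CPM, the other shoot groups at 1933 to 2132 CPM, and roots at 270 to 379 CPM.

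Single members lost between 33.5 and 69.8% of their sufficient level in deficient shoots, with a median of 40.3%. In resupplied shoots they were 33.8 to 61.5% below it, with a median of 43.7%. All 43 passed the filter on low counts in shoots. Of these, 35 were called lower in deficient shoots by edgeR's quasi-likelihood test, where 4.44% of the 26318 genes tested were. In resupplied shoots 42 were called lower, against 5.47%. The rule used both comparisons, so nothing is read from these counts. The comparisons also share the sufficient libraries. In the authors' deposited tables, 38 and 42 members were lower with an adjusted p under 0.05, against 7.75% and 8.94% of genes with an adjusted p there. Among the members not lower in deficient shoots there, Zm00004b024850 had a log2 fold change of -0.01 (adjusted p = 0.97, DESeq2 Wald test).

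The member with the most shoot counts, Zm00004b006060, had 587, 572 and 579 CPM in sufficient shoots. Deficient shoots had 345, 430 and 366 CPM and resupplied ones 394, 355 and 352 CPM. The spread was small in sufficient shoots, and the other groups lay on top of each other. Zm00004b024502 had 543, 496 and 540 CPM in sufficient, 320, 327 and 306 in deficient, and 368, 340 and 334 in resupplied shoots. Its resupplied libraries were all above its deficient ones, but by little. Zm00004b035088 had 349, 320 and 331 CPM in sufficient, 210, 202 and 183 in deficient and 216, 201 and 199 in resupplied shoots, so its lower groups overlapped.

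Zm00004b018425 was lower in resupplied than in deficient shoots, which were collected at the same time. It had 336, 278 and 283 CPM in sufficient shoots, 159, 172 and 185 in deficient and 120, 123 and 113 in resupplied shoots. All 3 groups were apart, and resupplied shoots were 60.4% below sufficient ones. The ratio of resupplied to deficient shoots, 0.688, was the lowest in the group and near the lower limit of the rule. Zm00004b015427 had its means in the same order, with 15.1, 12.1 and 11.1 CPM in sufficient shoots. Deficient shoots had 6.97, 7.49 and 8.07 CPM and resupplied ones 4.97, 4.06 and 6.54 CPM. The 3 groups of this gene did not overlap, but it was not called lower in resupplied than in deficient shoots.

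In 6 members the ratio of sufficient to deficient shoots was at least 2, in 13 that of sufficient to resupplied shoots, and in 5 both. The largest ratios of sufficient to deficient shoots, among members with at least 10 CPM in sufficient shoots, were in 4 genes. Zm00004b022348 had 202, 195 and 232 CPM in sufficient shoots, 76.5, 68.1 and 68.3 in deficient and 97.5, 89.8 and 81.9 in resupplied shoots. Its groups were all apart, with resupplied shoots slightly above deficient ones and 57.2% below sufficient ones. Zm00004b030060 had 70.5, 93.1 and 74.4 CPM in sufficient, 23.8, 28 and 35.4 in deficient and 31.9, 43.9 and 35.1 in resupplied shoots. Here the lower groups overlapped.

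Zm00004b009631 had the largest ratio of sufficient to resupplied shoots, 2.59, and its sufficient libraries spread widely, at 143, 84.2 and 69.3 CPM. It had 42.3, 46.2 and 28.8 CPM in deficient and 37.1, 39.6 and 37.6 in resupplied shoots. Even its lowest sufficient library was 1.502 times the highest of the others. Zm00004b000433 had 19.8, 14.4 and 14.7 CPM in sufficient shoots, 6.08, 5.98 and 7.31 in deficient and 9.36, 7.83 and 5.87 in resupplied ones, the last again overlapping.

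**Figure D4:**
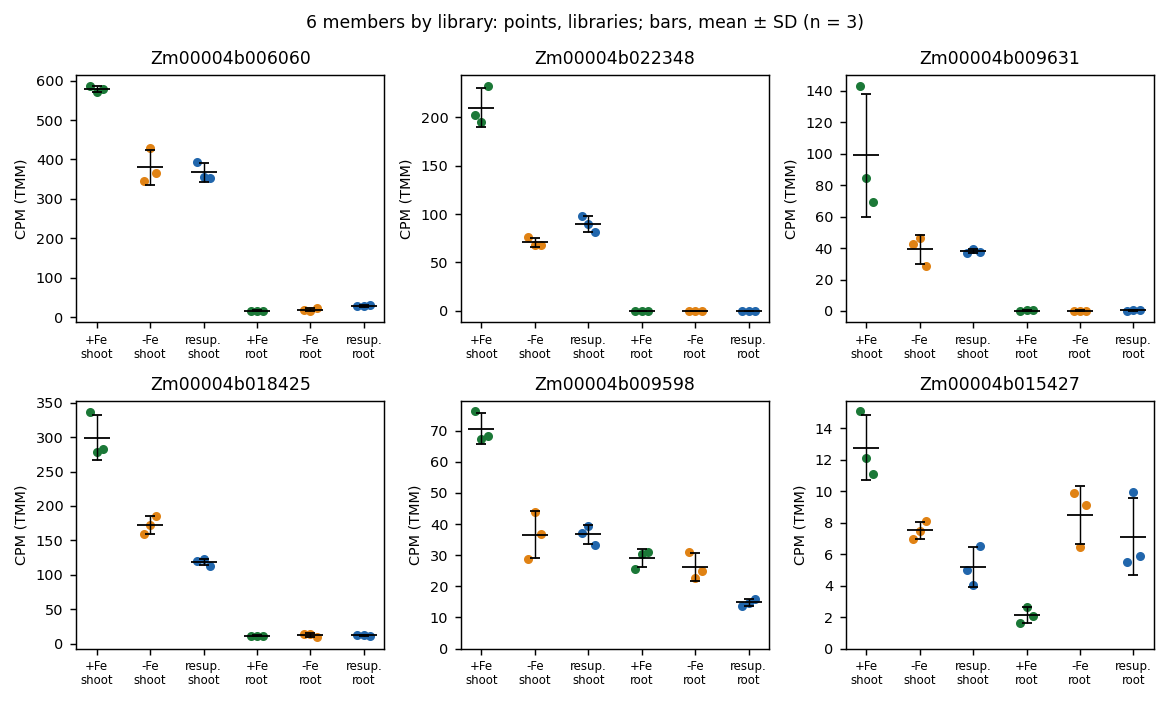
CPM by library (points) with mean and SD of 3 libraries (bars) for 6 members in shoots and roots. Zm00004b018425 steps down from group to group in shoots, Zm00004b022348 and Zm00004b009631 are near 0 in roots, and Zm00004b009598 and Zm00004b015427 also differ between root groups.

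Most members had a lower mean in resupplied than in deficient shoots. This held for 28 of 43, where 49.9% of the genes tested had a negative log2 fold change. The rule bounded this comparison, which allows no test of it. By edgeR, 2 members were called higher, with 4.86% of genes as background, and 1 lower, with 3.72%. Those higher were Zm00004b022348 and Zm00004b017825, the one lower was Zm00004b018425. The call of Zm00004b022348 was lost with total-count scaling and without deficient shoot library 2 or 3 or resupplied library 1 or 2. That of Zm00004b017825 was lost without resupplied shoot library 3. Zm00004b017825 had 49.3, 46.2 and 48.2 CPM in sufficient, 16.4, 21.9 and 23.5 in deficient and 28.6, 29.7 and 32.1 in resupplied shoots. All 3 groups were apart, and resupplied shoots were 37.1% below sufficient ones. In 3 members every resupplied shoot library was above every deficient one, against 14.4% of genes tested, and in 6 every one was below, against 13.5%. The authors' deposited table has 4 members higher and 4 lower at an adjusted p under 0.05, against 8.97% and 7.21% of genes.

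How clear the separation was differed between members. The lowest sufficient library was 1.01 to 2.00 times the highest of the 6 others, with a median of 1.3. Under 1.1 were 6 members. The narrowest was Zm00004b030855, which had 26.4, 23.1 and 21.9 CPM in sufficient shoots, 9.18, 16.3 and 21.7 in deficient and 16.1, 5.99 and 18.6 in resupplied ones. It was called in neither comparison with sufficient shoots. Zm00004b029855 had 1 sufficient library far above the others, with 85.7, 39.8 and 43.9 CPM in sufficient, 38.6, 35.3 and 29 in deficient and 25.1, 28.6 and 31.4 in resupplied shoots. Membership as a whole leaned on single libraries, since 7 of the 43 met the rule whichever 1 of the 18 was left out. Without sufficient shoot library 2 the rule gave 69 genes, 39 of them members.

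The scaling moved the group more than any library. With total counts alone, which shift the median log2 change of all shoot genes by 0.18 in deficiency and 0.10 on resupply, 6 genes met the rule, all of them members. Since the rule asked for a larger fall than this shift, the choice of members kept all 43 below sufficient shoots on that scale too. Their median log2 change there was -0.56 in deficient and -0.72 in resupplied shoots. On the TMM scale these medians were -0.74 and -0.83, where all genes had 0.01 and 0.00.

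The rule asked only for less root than shoot signal, and the members ranged widely in this. In 10 the root mean was under 2% of the shoot mean, in 16 between 2 and 20%, and in 17 above that. Zm00004b021897 had a count of 0 in all 9 root libraries. At 28.7 CPM over the 9 shoot libraries it was at least 666-fold higher there, with 3 counts per root library as the floor. Zm00004b030060 had 0.0248 CPM in 1 root library and 0 in the other 8. At the other end, roots held 98.3% of the shoot mean in Zm00004b015148 and 89.8% in Zm00004b025194. Zm00004b025194 had 24.9 to 36.3 CPM in the 9 root libraries and 25.7 to 49.5 CPM in the 9 shoot libraries. A ratio of sufficient to deficient shoots of at least 2 was found in 4 of the 10, 1 of the 16 and 1 of the 17. A ratio of sufficient to resupplied shoots of at least 2 was found in 4, 4 and 5. The rule used both ratios, and the classes were not compared by a test.

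Roots gave the comparisons that the rule did not use, resupplied plants against the other groups, for the 37 members that passed the filter on low counts there. These comparisons share their sufficient and deficient libraries with the root comparison in the rule. Resupplied roots also entered the root mean, which had to be below the shoot mean. The rule kept out genes with sufficient roots well above deficient ones. That can tilt the comparison with sufficient roots upward and the one with deficient roots downward. Against sufficient roots, 3 members rose and 1 fell in resupplied roots by edgeR's quasi-likelihood test with Benjamini-Hochberg adjustment over 26577 genes. That is 8.11% and 2.70% of the 37, with 0.64% and 0.102% of all genes called. The median log2 fold change was 0.08, against -0.00 over all genes, with 21 members above 0 and 16 below. At an unadjusted p under 0.05 there were 10 of the 37 members, against 9.81% of all genes. The authors' deposited table has 34 members with an adjusted p, of which 3 were higher and 2 lower with a value under 0.05. Among all genes there, 1.97% were higher and 0.83% lower.

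Zm00004b009598 was lower in both organs. It had 76.5, 67.3 and 68.4 CPM in sufficient, 28.9, 44 and 36.8 in deficient and 37.2, 39.5 and 33.4 in resupplied shoots. In roots it had 25.7, 30.3 and 31 CPM in sufficient and 31.2, 22.7 and 24.8 in deficient plants, groups that overlapped. Resupplied roots had 13.8, 14.7 and 16 CPM and lay below all others. Its log2 fold change in resupplied roots was -0.96 ± 0.13 (SE) against sufficient ones (adjusted p = 0.0084, edgeR) and -0.79 ± 0.13 against deficient ones (adjusted p = 0.0082, edgeR). Shoots were thus low in both deficient and resupplied plants, and roots in resupplied plants only. Both root calls held in all 16 alternatives, with adjusted p up to 0.048. The authors' deposited table gives -0.86 and -0.73.

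Zm00004b006060 was higher in resupplied roots while its shoot level stayed down. Its roots had 16.8, 16.2 and 17 CPM in sufficient, 19.4, 15.8 and 22.4 in deficient and 27.4, 28.4 and 31.9 in resupplied plants. Resupplied roots were above all others, by a log2 fold change of 0.82 ± 0.13 (SE) against sufficient roots (adjusted p = 0.017, edgeR) and 0.63 ± 0.13 against deficient roots (adjusted p = 0.024, edgeR). The first call was lost without sufficient root library 1, 2 or 3 or resupplied library 2 or 3, with adjusted p up to 0.081. The second was lost without deficient library 1 or 2 or resupplied library 2 or 3, with adjusted p up to 0.087. The authors' deposited table gives 0.70 and 0.54.

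Zm00004b029855 had 5.31, 6.28 and 5.62 CPM in sufficient roots, 5.93, 6.04 and 5.81 in deficient and 11, 8.21 and 10.3 in resupplied ones. Resupplied roots were apart from both. The log2 fold changes were 0.78 ± 0.15 (SE, adjusted p = 0.041, edgeR) against sufficient and 0.76 ± 0.15 (adjusted p = 0.019, edgeR) against deficient roots. Leaving out any 1 of the 9 root libraries ended the first call, as did total-count scaling, with adjusted p from 0.054 to 0.13 in those fits. The second was lost without deficient library 1 or 2 or resupplied library 1 or 3, with adjusted p up to 0.072. A replicate block ended both. The authors' deposited table gives 0.60 and 0.66.

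Zm00004b015427, with the second lowest ratio of resupplied to deficient shoots, 0.695, went the other way in roots. It had 1.65, 2.67 and 2.08 CPM in sufficient roots, 9.91, 6.43 and 9.15 in deficient and 5.51, 9.92 and 5.9 in resupplied ones. Sufficient roots were below all others, and the other groups overlapped. The log2 fold change in resupplied roots was 1.74 ± 0.28 (SE) against sufficient ones (adjusted p = 0.018, edgeR). Without sufficient root library 1 or 3 or resupplied library 2 that call was lost, with adjusted p up to 0.077. The authors' deposited table gives 0.92. In deficient roots the log2 fold change by edgeR was 1.97 ± 0.28. This was the only call among members in that comparison, where 2.08% of genes were called higher and 0.801% lower. The authors' deposited table has 3 members higher there and 0 lower at an adjusted p under 0.05, against 4.14% and 2.61% of genes. The rule kept out genes with lower means in deficient roots, so nothing is read from these counts. Deficient roots were above sufficient ones in every library for 3 members, against 11.5% of genes tested, and below for 0, against 8.76%.

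**Figure D5:**
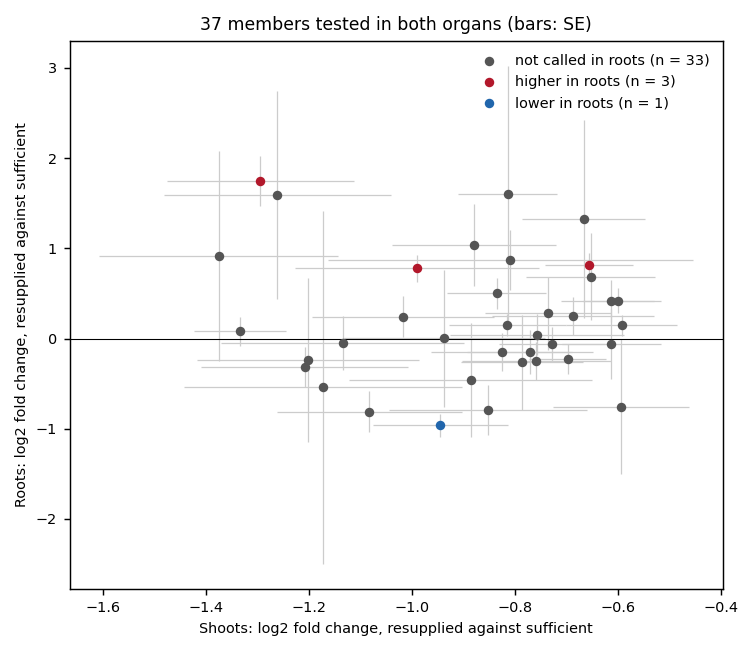
Log2 fold changes of resupplied against sufficient plants in shoots (x axis) and roots (y axis) for the 37 members tested in both organs, with SE bars. All points lie left of 0 by the choice of members. In roots 3 called members lie above 0 and 1 below, among 33 that were not called.

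Against deficient roots, 2 members rose in resupplied roots, where 1.79% of genes were called higher, and 1 fell, where 1.74% were called lower. They were Zm00004b006060, Zm00004b029855 and Zm00004b009598, described above. The median log2 fold change was -0.07, with 16 members above 0 and 21 below. At an unadjusted p under 0.05 by edgeR there were 8 of the 37 members, against 18.6% of all genes. The authors' deposited table has 33 members with an adjusted p, of which 5 were higher and 2 lower with a value under 0.05. Among all genes there, 5.33% were higher and 4.71% lower. Root calls by edgeR were few, and several were lost with 1 library left out. Such fits have fewer libraries, so lost power and dependence on 1 library cannot be told apart. In 16 alternatives, log2 fold changes against sufficient roots were 0.75 to 0.86 in Zm00004b006060 and 0.69 to 0.88 in Zm00004b029855. In Zm00004b015427 they were 1.42 to 1.94. Without sufficient root library 1, 2 or 3 the calls against sufficient roots were 1, 2 and 2, and without resupplied root library 2 or 3 they were 1 and 2. Without deficient root library 1 or 2 there was 1 call against deficient roots. Zm00004b009598 was the call left wherever 1 was left.

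Without regard to the test, resupplied roots were above sufficient roots in every library for 6 members, or 16.2% of the 37, where 7.75% of genes tested were. They were below in every library for 3, or 8.11%, against 7.69%. Against deficient roots the numbers were 5 above and 5 below, 13.5% each, with 10.1% and 13.2% of all genes. Among those not called, Zm00004b031228 had 2.12, 3.12 and 2.44 CPM in sufficient and 1.33, 1.56 and 1.53 in resupplied roots (log2 fold change -0.79 ± 0.28, adjusted p = 0.35, edgeR). Zm00004b000433 had 6.43, 8.44 and 6.96 CPM in sufficient and 4.92, 3.94 and 3.54 in resupplied roots (log2 fold change -0.81 ± 0.23, adjusted p = 0.19, edgeR). The authors' deposited table gives -0.40 for Zm00004b031228 (adjusted p = 0.25, DESeq2 Wald test) and -0.49 for Zm00004b000433 (0.048).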

How the data were processed

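Each of the 18 libraries came with a file of estimated counts by gene, deposited by the authors. Per the submitters' processing notes, Trim Galore, HISAT2, StringTie and DESeq2 were used, without versions. The genome build is not given in the sources used here. All values were whole numbers as deposited, so rounding before the tests changed none. Totals ran from 63058129 to 84318039 per library. Low values were more often multiples of 4 (29.3 to 33%) than 25% would be, so totals may overstate fragments. The lowest count of a member in a shoot library was 133. Counting error alone sets the floor of 3 counts.

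The authors also deposited 6 tables of DESeq2 comparisons. Per the file headers, these hold a base mean (a normalised signal), a log2 fold change with its error, the Wald score, and p-values before and after adjustment. They are quoted only where named. Their log2 fold changes come from another fit and can be much smaller where counts are low. For resupplied against sufficient roots, Zm00004b017825 has 0.05 ± 0.07 (SE) there and 1.33 ± 1.10 by edgeR. A difference in size between the fits is therefore not read as a disagreement.

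Tests used edgeR 4.0.16 under R 4.3.3 (filterByExpr, TMM, quasi-likelihood F-test, Benjamini-Hochberg adjusted p under 0.05), with 1 fit per organ over 9 libraries and group as the only term. "Rose", "fell" and "called" refer to this test. Standard errors came from the F statistic. Replicates may differ technically as well as biologically. No pair of replicates agreed within sampling noise, with a chi-square per gene of 28.9 or more. DESeq2 1.42.0 served as an alternative. The steps were tested on simulated data.

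The members, lists and tests were chosen with earlier results of these data known. Named members were those with the most counts in sufficient shoots, the largest shoot ratios, a root call, values next to a threshold, or the extreme root to shoot ratios. A further naming rule, pairs with consecutive identifiers, found 0 pairs. Zm00004b030855, Zm00004b031228 and the members named only for opposite directions in the organs were singled out after their values were seen. The gene lists on iron, photosynthesis and strigolactones were not used, since identifiers had no names.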

Additional observations from a re-analysis of the deposited data

Results flagged for a closer look

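In some members the libraries moved one way in shoots and the opposite way in roots under the same comparison, with no overlap between groups in either organ. The shoot direction against sufficient plants was set by the choice of members. The difference between organs was not tested, and CPM in roots was low in several of them.

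For resupplied against sufficient plants this was so for 6 of the 37 members tested in both organs. Of all 3714 genes with resupplied shoots below sufficient ones in every library, 8.64% had resupplied roots above in every library. The root log2 fold changes were 0.82 in Zm00004b006060, 1.74 in Zm00004b015427 and 0.78 in Zm00004b029855, the 3 members called higher in roots. They were 0.42 in Zm00004b024502 (adjusted p = 0.29, edgeR), 0.42 in Zm00004b030814 (0.61) and 1.33 in Zm00004b017825 (0.77). The root libraries of Zm00004b024502 had 29.6, 37.5 and 42.6 CPM in sufficient and 55.6, 46.8 and 43.7 in resupplied plants. Those of Zm00004b030814 had 28.6, 34.1 and 33.4 against 54.6, 35.5 and 37.9 CPM. In Zm00004b017825 all root values were under 0.31 CPM, with 0, 0.109 and 0.116 in sufficient and 0.301, 0.122 and 0.144 in resupplied roots.

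For deficient against sufficient plants it was so for 3 of the 37, in a root comparison that the rule had cut at its lower side. Of all 3339 genes with deficient shoots below sufficient ones in every library, 8.72% had deficient roots above in every library. The root log2 fold changes were 1.97 in Zm00004b015427, 1.81 in Zm00004b003239 and 1.65 in Zm00004b019811. Zm00004b003239 had 0.708, 0.8 and 0.309 CPM in sufficient roots, 2.42, 2.31 and 1.79 in deficient and 0.104, 0.352 and 0.862 in resupplied ones. Its deficient roots were above all others, and the difference of resupplied from deficient roots (log2 fold change -2.27 ± 0.64, SE) was not called (adjusted p = 0.08, edgeR). For that difference the authors' deposited table gives -0.69 ± 0.22 (SE, adjusted p = 0.020, DESeq2 Wald test). It comes from another fit, so the sizes are not compared.

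For resupplied against deficient plants it was so for 1 of the 37, where 1.83% of all 25142 genes tested in both organs had opposite directions. This was Zm00004b018610, with a root log2 fold change of 0.62 ± 0.17 (SE, adjusted p = 0.079, edgeR). The authors' deposited table gives 0.57 (adjusted p = 3.1e-05, DESeq2 Wald test). Zm00004b018610 had 31.4, 27.4 and 28.2 CPM in deficient and 45.2, 47.5 and 38.2 in resupplied roots. In shoots it had 62, 58.6 and 69.9 CPM in deficient and 54.5, 56.6 and 53.5 in resupplied plants.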

How the results depend on the processing

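The rule gave 43 members, 6 with total-count scaling, 166 with a ratio of 1.3 (35 of the 43 among them) and 6 with a ratio of 2. Leaving out 1 library gave 39 to 69. Other settings tried for the rule kept the number within 1.5 times. Total-count scaling moved the mean summed level to 2988, 1961 and 1824 CPM in sufficient, deficient and resupplied shoots and to 356, 366 and 405 CPM in roots. With 1 library left out it was 3465 to 3665, 2050 to 2100 and 1989 to 2080 CPM in shoots and 296 to 331, 326 to 338 and 353 to 370 CPM in roots.

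With 1 library left out, 24 to 35 members were called in deficient and 32 to 42 in resupplied against sufficient shoots, and 2 to 4 in resupplied against deficient shoots. In roots these numbers were 1 to 3, 1 to 3 and 1 to 4 in the same order; the 3 in deficiency came without sufficient root library 3. DESeq2 called 2 members in deficient roots and 8 in resupplied against deficient roots, 5 higher and 3 lower. The cause was not tested. The share of all genes called was not taken for the alternatives in this paragraph. Their counts show only how the members' calls moved and are not read as a trait of the members. Same-numbered libraries of different groups within an organ had correlations of -0.10 to 0.12 in shoots and -0.09 to 0.04 in roots. Replicate numbers thus showed little pairing between groups of an organ. Pairing of roots with shoots was not examined. A replicate block gave 37, 41 and 4 calls in shoots and 1, 3 and 2 in roots. Direction was followed for all members only in shoots against sufficient plants, where the rule set it. In the other comparisons it was followed for called members only. None of these results changed direction in any alternative. The 6 members not tested in roots had 0 to 25 counts there in all, with means under 0.1 CPM.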

Other observations

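Within a group, some libraries stood out over many members. Sufficient shoot library 1 was the highest of its 3 for 26 of the 43 members, and library 2 the lowest for 24. In resupplied shoots library 3 was the lowest for 24. In sufficient roots library 1 was the lowest for 27. The median member was at 107% of its group mean in sufficient shoot library 1 and at 94.5% in library 2. The same order was not counted over all genes, so it is not read as a trait of the members. The part of these libraries in the results was not tested beyond leaving each library out.

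The members did not sit next to each other by identifier. No pair had consecutive numbers, and the closest, Zm00004b017805 and Zm00004b017825, were 20 apart.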
